A study of Talpa occidentalis with 2 samples.

Results

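Olfactory receptor families 4, 5, 8 and 9 belong to class II of the mammalian odorant receptors, and they were read here from the gene annotation of the Iberian mole, Talpa occidentalis, deposited for genome build talOcc3. Members were all gene models whose symbol, the deposited name without its copy suffix, begins with OR4, OR5, OR8 or OR9 followed by subfamily letters and a number. There were 332 such models under 105 symbols, out of 893 olfactory receptor models and 23336 gene models in all. Family 4 had 134 models, family 5 had 104, family 8 had 82 and family 9 had 12.

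The annotation was deposited with a 4C-seq study, which maps the chromatin contacts of 1 chosen site. Its viewpoint was the FGF9 transcription start, in 1 forebrain and 1 hindlimb library of wild-type embryos at embryonic day 15. No contact values were analysed here, depth is unknown, and the annotation carries no column for either library. FGF9 lay on scaffold 38, which held 0 of the 332 models.

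Olfactory receptors are G protein-coupled receptors that olfactory sensory neurons display on their cilia in the nasal epithelium. Each mature neuron is known to express a single receptor gene, chosen from a large family, and signals through the G protein subunit encoded by GNAL. Their coding region usually lies in a single exon, and the genes stand in clusters where neighbouring copies of a subfamily are common. Moles live mainly underground and are known to rely on smell and touch.

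All values belong to 1 assembled genome. Gene models are not replicates, so no test was made, and the Wilson 95% intervals beside shares express counting error alone.

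Most members had a single coding exon of about the length usual for an odorant receptor gene. A single coding exon was found in 297 of 332 members (89.5%, interval 85.7 to 92.3%), against 75.4% of 516 other class II models (71.5 to 78.9%) and 68.9% of 45 class I models (54.3 to 80.5%). Over all gene models of the annotation the share was 24.7%. A single coding exon with a length, in bases, of 300 to 340 codons is called full size below and was found in 281 members (84.6%, 80.4 to 88.1%). Full size is a limit on length only and says nothing of the reading frame: 266 of the 281 lengths were a multiple of 3 and 15 were not. The corresponding shares were 62.2% of the other class II models (58.0 to 66.3%) and 64.4% of class I models (49.8 to 76.8%), and 4.14% of all gene models. For both shares the members' interval lies above those of the other class II models and of class I. Scaffolds whose annotation ended before 1 Mb held 6.93% of the members, 13.6% of the other class II models and 4.44% of the class I models. Whether this bears on the shares was not tested. Members share symbols and source proteins, so they are not independent of each other.

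**Figure D1:**
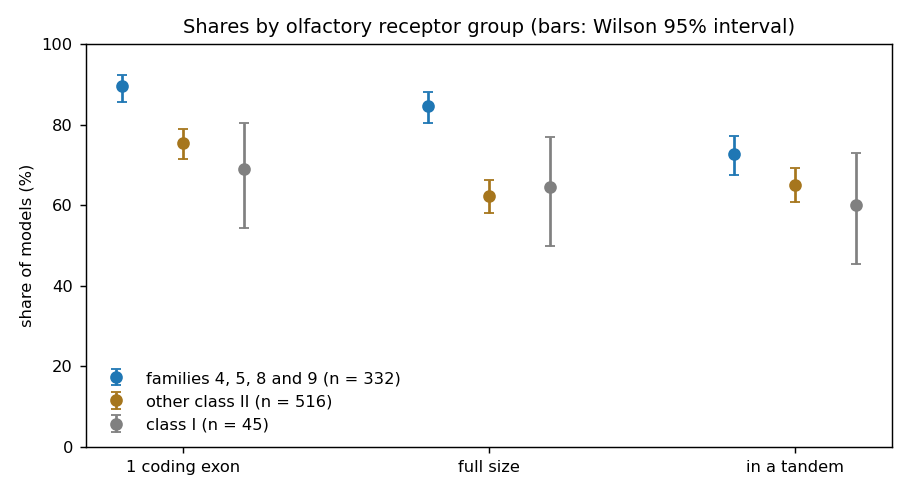
Share of models in percent (y axis) with 1 coding exon, of full size (1 coding exon with the length of 300 to 340 codons) and standing in a tandem (same symbol, starts at most 100 kb apart), for the 332 members, 516 other class II models and 45 class I models. Points are shares and bars are Wilson 95% intervals, which cover counting error only. The members have the highest point for each of the 3 properties, 89.5%, 84.6% and 72.6%.

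Coding length varied little within and between the families. Its median was 933 bases in family 4 (range 126 to 1047), 942 in family 5 (237 to 1089), 933 in family 8 (650 to 1089) and 939 in family 9 (933 to 969). For the 332 members together the median was 936 bases, with quartiles of 930 and 945, against 939 bases for the other class II models and 969 bases for class I models. The most frequent lengths were 936 bases in 44 models, 933 in 43, 930 in 32 and 927 in 31, and each of these is a whole number of codons. The coding length was a multiple of 3 in 308 members and not in 24.

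Full size was reached by 74 of 82 family 8 models (90.2%), 115 of 134 in family 4 (85.8%), 83 of 104 in family 5 (79.8%) and 9 of 12 in family 9 (75%). The Wilson intervals of the 4 families overlap, from 46.8 to 91.1% in family 9 to 81.9 to 95% in family 8. Models from the source named ALN were of full size in 86.0% of 236 cases, and models from exonerate, a program that aligns proteins to a genome, in 81.2% of 96.

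The 51 members that were not of full size fell into 3 kinds. Several coding exons were found in 35, of which 27 had 2, 6 had 3 and 2 had 4. A single exon of under 900 bases was found in 15, and OR4K15 had a single exon of 1023 bases. Of the 35 models with several exons, 28 still had the length of 300 to 340 codons in total. Their longest intron had a median of 2703 bases and ran from 75 bases to 195 kb. It exceeded 10 kb in 9 models, the widest being 195 kb in OR4F16 and 182 kb in OR5AR1.

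The longest coding sequences belonged to OR8G5_copy2 (scaffold 18, 8616954 to 8627992) and OR5P3_copy2 (scaffold 18, 30833639 to 30836328), both with 4 coding exons and 1089 bases. The models with 3 coding exons were OR8B2 (650 bases), OR4F16 (984), OR4A15 (1047), OR4C45_copy2 (1032), OR5P3_copy6 (987) and OR4D1_copy2 (939). The shortest were OR4D10_copy2, with 126 bases (scaffold 18, 7357728 to 7357853), and OR5T3_copy2, with 237 bases (scaffold 14135, 1067 to 1303). Under 500 bases were found in 9 members, 3 of them on scaffolds shorter than 1 Mb. Of those 3, OR4F21_copy2 ended at position 1613 of scaffold 2041 and OR4F16_copy2 began at 1615 of the same scaffold and strand, with 411 and 329 coding bases.

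**Figure D2:**
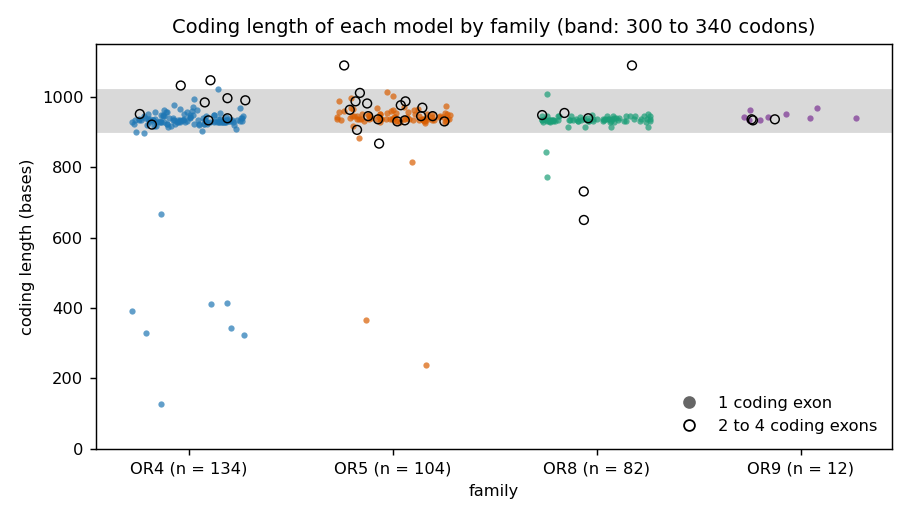
Coding length in bases (y axis) of each member by family (x axis, with the number of models). Filled points have 1 coding exon, open circles have 2 to 4, horizontal spread within a family is only for legibility, and the grey band marks the length of 300 to 340 codons. Most points lie in the band, and the 9 models under 500 bases are in families 4 and 5.

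The members stood in a few dense clusters. Member starts on 1 scaffold that were at most 500 kb apart were joined, which gave 37 clusters. The 5 clusters of at least 10 members held 269 members (81.0%), 13 clusters of 2 to 9 held 44, and 19 members stood alone. Neighbouring members within a cluster had their starts a median of 9.99 kb apart, with quartiles of 7.42 and 14.9 kb. The joining limit fell in a sparse range. The 3 widest joined distances were 222 kb (OR4F29 to OR4F16, whose models overlap), 281 kb (OR5AS1 to OR5W2) and 378 kb (OR5AN1_copy8 to OR5B12_copy4). The 3 shortest distances left unjoined were 594 kb (OR8G5_copy2 to OR5AK2), 694 kb (OR4E2 to OR4K3) and 1110 kb (OR4Q3 to OR4E1).

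Neighbouring members mostly shared a family. A shared symbol implies a shared subfamily, and a shared subfamily a shared family. The falling order of the shares given below is therefore fixed by definition. Pairs were consecutive members, and any other model between them was passed over. No such shares of other receptors or of all gene models are set beside them. Of 295 neighbouring pairs in clusters, 275 (93.2%) were of 1 family, 204 (69.2%) of 1 subfamily, 133 (45.1%) of 1 symbol, and 241 (81.7%) lay on the same strand.

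The largest cluster occupied scaffold 18 from 9204446 to 10872240 and held 122 members (36.7%) in 1.67 Mb, from OR5AK2 to OR4B1. It was flanked by LRRC55, an auxiliary subunit of potassium channels, 66.8 kb away, and by PTPRJ, a receptor tyrosine phosphatase, 24.9 kb away. The human counterparts of these genes lie on chromosome 11. The cluster held 68 family 4, 29 family 5, 20 family 8 and 5 family 9 models, and 102 of the 122 were of full size. No named gene other than olfactory receptors stood inside it.

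Family membership divided this cluster in order along the scaffold. All 68 family 4 models formed 1 block from 10085648 to 10872240 (787 kb), next to PTPRJ, with no member of another family among them. The block also held 12 models without a symbol. The 54 models of families 5, 8 and 9 stood on the other side, from 9204446 to 10066727 (862 kb). Counting members only, they formed 13 alternating blocks of 1 family each. The cluster also held 15 olfactory receptor models of other families, with 0 of them in the family 4 block. The block with most models among these 13 held 8 of family 5, OR5M10 to OR5AL1, in 45.8 kb. Both sides mixed the strands, with 33 plus and 35 minus models in the family 4 block and 30 plus and 24 minus models on the other side, and their full-size shares were close at 83.8% and 83.3%.

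Another cluster on scaffold 18, from 7349192 to 8627992, was mostly of family 5. It held 51 members in 1.28 Mb, of which 42 were family 5, 4 family 4, 4 family 9 and 1 family 8, and 44 were of full size. The plus strand carried 42 of them. It ran from OR4D11, 19.5 kb from the oxysterol-binding protein gene OSBP, to OR8G5_copy2, 54.8 kb from CTNND1, which encodes p120 catenin. Unlike the largest cluster it was interrupted by other named genes, among them MPEG1, DTX4, the glycine acyltransferases GLYAT and GLYATL2, CNTF, ZFP91 and LPXN. The far end of the cluster, and so the distance to CTNND1, rests on OR8G5_copy2, its only family 8 model. That model has 4 coding exons, and its deposited match to a target transcript covered 21.1% of its coding bases.

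Family 8 had its main cluster on scaffold 14, from 21612100 to 22499203. There, 44 of 45 members in 887 kb were family 8, and the remaining one was OR4D5. The cluster ran from OR8D4_copy4, 5.94 kb from a model named TUBA1A, to OR8A1, 25.9 kb from the pannexin gene PANX3, whose human counterpart also lies on chromosome 11. Full size was found in 41 of the 45.

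All 40 members of the cluster on scaffold 16, from 10083 to 805625, were of family 4. They stood in 796 kb from OR4K2 to OR4F16, and 37 were of full size. The cluster began at the end of the scaffold, so that its true extent is unknown. It was followed at 18.4 kb by LOXL1, a lysyl oxidase-like enzyme of elastic fibres. Its far end, and so this distance, rests on OR4F16 (508673 to 805625), whose intron of 195 kb spreads it around OR4F29 (583844 to 584779). The smallest of the 5 large clusters held 11 family 5 models in 175 kb, from OR5P3_copy4 to OR5E1P on scaffold 18 (30818522 to 30993598), of which 8 were of full size. Its nearest named neighbours were ZDHHC13, 102 kb away, and a model named ATP6, 41.5 kb away.

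**Figure D3:**
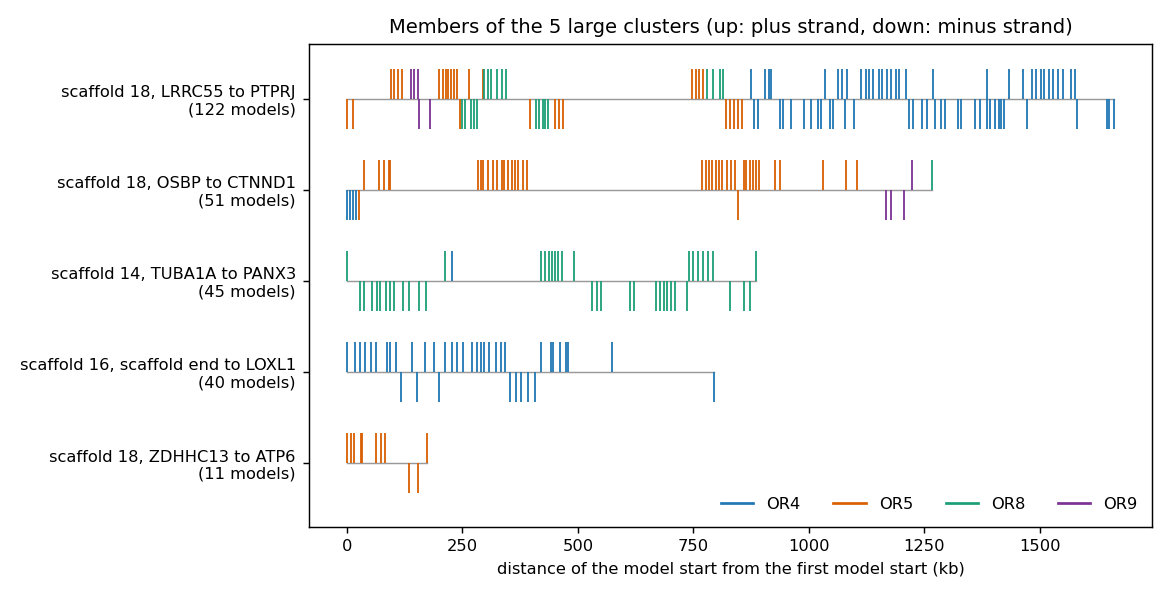
Start of each member in the 5 clusters of at least 10 members, as distance in kb from the first start (x axis). Ticks point up on the plus strand and down on the minus strand, colours give the family, and rows are named by scaffold and nearest named genes. The family 4 block fills the right side of the top row, and rows 3 and 4 are almost wholly family 8 and wholly family 4.

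Among the smaller clusters, 9 family 5 models (OR5K, OR5H and OR5AC subfamilies) stood on scaffold 4 between CLDND1 and GABRR3, all on the minus strand in 177 kb. These flanking genes lie on human chromosome 3. On scaffold 6, 6 family 4 models from OR4K3 to OR4Q3 (700661 to 804328) were all of full size, 165 kb from TTC5, which lies on human chromosome 14. On scaffold 51, 3 OR4D models stood at one end of the scaffold and OR4D2_copy3 and OR4D2 at the other, beside genes of human chromosome 17.

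On scaffolds whose annotation reached 1 Mb, 7 members stood more than 500 kb from any other member of the same scaffold. The 5 of full size were OR4E1 and OR4E2 on scaffold 6, OR5P3_copy11 on scaffold 2, OR5V1 on scaffold 48 and OR8S1 on scaffold 31. The others were OR5C1 and OR5L2, each with 2 coding exons. The stretch matched to a target transcript in the deposited record covered only 24.3% of the coding bases of OR5P3_copy11. It covered 26.3% of those of OR5L2. These 2 names therefore rest on short matches. OR4E2 (5353 to 6291) and OR8S1 (87281 to 88207) lay less than 500 kb from the start of their scaffolds. Their distance to members beyond that end is unknown. A further 12 single members lay on shorter scaffolds. The 8 of full size among them were OR4C46_copy9, OR4D10, OR4F21, OR5F1, OR5H2_copy3, OR5W2_copy2, OR8D4_copy3 and OR8H2_copy6.

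The 105 symbols carried between 1 and 18 models each, 3.16 on average, against 3.77 for the other class II symbols and 1.8 for class I symbols. Family 8 had the most models for each symbol (4.56), family 4 had 2.98, family 5 had 2.97 and family 9 had 1.71. At least 2 models were carried by 66 symbols (62.9%), against 53.3% of 137 other class II symbols and 52% of 25 class I symbols. Over all symbols of the annotation the share was 14.6%. By subfamily, OR4C was the largest with 44 models, before OR5B with 26, OR8B and OR4K with 24 each and OR8D with 19.

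Copies of 1 symbol mostly stood near each other, though often with other models among them. A tandem was taken as models of 1 symbol on 1 scaffold with successive starts at most 100 kb apart. It was found for 56 symbols (53.3%), against 43.1% of the other class II symbols, 44% of the class I symbols and 7.51% of all symbols. Tandems held 241 of the 332 members (72.6%, 67.6 to 77.1%), against 65.1% of other class II models (60.9 to 69.1%) and 60% of class I models (45.5 to 73.0%). These intervals overlap. By family, tandems held 82.9% of family 8 models, 73.9% of family 4, 64.4% of family 5 and 58.3% of family 9.

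Of the 63 tandem runs, 46 lay on 1 strand. No other gene model overlapped the extent of 29 runs. Runs of at least 3 models numbered 34, for 33 symbols with 183 models, with a median distance of 12.3 kb. Of these, 23 consisted of full-size models only, and 11 were free of other models. In family 4 they were those of OR4A47, OR4B1, OR4C6, OR4C11, OR4C15, OR4C16, OR4C45, OR4C46, OR4F6, OR4K1, OR4K13, OR4L1 and OR4P4. Family 5 had OR5A1, OR5A2, OR5AC2, OR5AN1, OR5B3, OR5B12, OR5L1, OR5M8, OR5P3 and OR5W2. Family 8 had OR8B4, OR8B8, OR8D4 on both scaffolds 14 and 246, OR8G1, OR8G2, OR8H1, OR8H2, OR8J3 and OR8U8, and family 9 had OR9G9.

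The symbol with most models was OR8D4, with 18, all of full size at 930 to 939 bases. On scaffold 14, 14 of them lay within 214 kb (21612100 to 21825850), with 2 on the plus strand at the outer ends and 12 on the minus strand between them. Scaffold 246 held 3 more and scaffold 1644 held 1.

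The 9 models of OR4C45 formed the shortest of the runs with at least 9 models, over 85.9 kb of scaffold 18 (10702221 to 10788142), all on the plus strand. The minus-strand model OR4C3 (10768806 to 10792324), with an intron of 22.5 kb, overlapped the end of the run. Of the 9 models, 7 were of full size. OR5B3 had 12 models, 11 of them on the plus strand of scaffold 18 over 260 kb (8172248 to 8432123). OR8B4 had 9 models over 118 kb of scaffold 14, all of full size at 927 or 930 bases, the first 3 on the minus strand and the other 6 on the plus strand, with 3 models of other OR8B symbols among them.

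OR4C46 had 12 models, all of full size, on 3 scaffolds. OR5P3 had 11, of which 9 stood within 154 kb of scaffold 18 and 8 were of full size. OR8B8 had 9, 7 of full size. OR4P4, OR5A1 and OR5AN1 had 8 each.

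**Figure D4:**
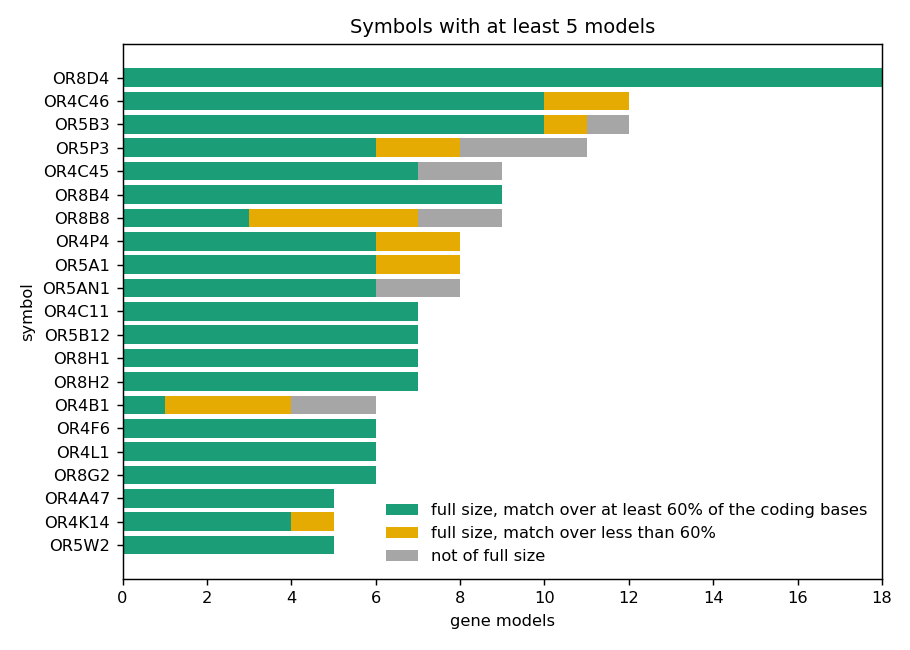
Number of gene models (x axis) of each symbol with at least 5 models (y axis). Green marks full-size models whose deposited target match covers at least 60% of the coding bases, yellow full-size models with a match over less than 60%, and grey models that are not of full size. All 18 OR8D4 models are green, whereas 4 of the 9 OR8B8 models are yellow.

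Copies of 1 symbol also differed in their deposited score. Each model's record holds a score assigned by the authors and the matched stretch of a target transcript. For 62 of 62 symbols with several models and scores on 1 scale, the copy numbers followed falling scores, so the model without a suffix had the highest score. Of 217 models below their symbol's best, the score was a median of 82.8% of the best, with quartiles of 45.3 and 93.1%, and 61 were under 50%. Of these 61, 44 were of full size.

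Copies within 1 run differed by score in different ways. In OR8D4 the lowest score was 76.0% of the best. In OR4C45, 8 models had 87.3 to 100% and the 342-base model OR4C45_copy9 had 32.8%. In OR5AN1, 3 models scored 973, 973 and 983, and the 5 that followed them on the plus strand scored 490, 467, 460, 450 and 406, or 41.3 to 49.8% of the best, although each matched over at least 93.8% of its coding bases.

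The target match covered at least 90% of the coding bases in 272 members and less than 60% in 40 (12%), with no member between 55.8 and 70.1%. Of these 40 models, 31 were of full size, so the coding length was that of a whole receptor while the recorded match was not. They were 14 models in family 4, 14 in family 5, 12 in family 8 and 0 in family 9. They belonged to 23 symbols, and for 6 of them, OR4S1, OR5AR1, OR5E1P, OR5L2, OR8D1 and OR8U8, every model was of this kind.

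The 4 OR8U8 models, in a run of 34.3 kb, matched over 28.2 to 29.3% of their 936 to 939 bases. In OR4B1, the model without suffix matched over 98.1% (scaffold 18, 10871314 to 10872240), while the other 5 stood together at 10215774 to 10290237 with matches over 23.1 to 51.8%.

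OR8B8 showed the same division by position. Its 3 models in the scaffold 14 cluster matched over 97.2 to 100% and scored 562, 575 and 1129. On scaffold 30, 4 further models of 915 bases each stood on the plus strand over 41.8 kb (9995671 to 10037481), matched over 34.2 to 37.8% and scored 161 to 169. They lay 15.8 kb from GPR101, an orphan receptor gene that is X-linked in human. The remaining models were OR8B8_copy9 on scaffold 42 (771 bases, match over 44.9%) and OR8B8_copy5 on scaffold 7561 (843 bases, match over 41%).

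**Figure D5:**
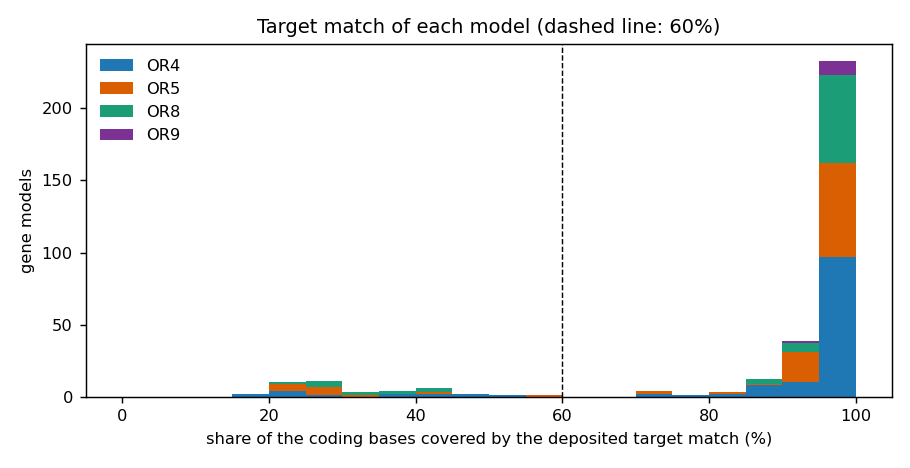
Number of members (y axis) by the share of coding bases covered by the deposited target match, in percent (x axis, bins of 5), coloured by family. The 40 members left of the dashed line at 60% are separated from the others by an empty stretch between 55.8 and 70.1%.

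Duplicated records of 1 locus were looked for as models with the same symbol, coding length, exon number, score and target match. There were 6 such pairs, 12 models in all. In 3 pairs an OR8D4 model on scaffold 14 had its equal on the short scaffold 246. The starts of these 3 models were 21.7 and 7.11 kb apart on both scaffolds, with the strand turned. On the minus strand of scaffold 14 they were at 21705880, 21684186 and 21677076. On the plus strand of scaffold 246 they were at 16694, 38388 and 45498. On scaffold 14 a further model, OR8D4_copy7, stood in the wider interval, and none did on scaffold 246. Whether scaffold 246 repeats that stretch of scaffold 14 or is a separate copy was not tested. The other pairs were of OR4C46 on scaffolds 437 and 2920, of OR4F6 on scaffold 16 (12.3 kb apart) and of OR5AN1 on scaffold 18 (11.3 kb apart). With each pair counted once, 326 models remained.

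Scaffolds shorter than 1 Mb held 23 members on 16 scaffolds, the longest of 58.4 kb, and 17 of the 23 were of full size. Of their 14 symbols, 13 also had a model on a longer scaffold.

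A RefSeq gene table of a later mole build, MPIMG_talOcc4v2.1, was used for the order of neighbours. It lists none of the 105 symbols by symbol or synonym, and its genes in these intervals are mostly named by locus number. Between LRRC55 and PTPRJ the deposited annotation has 151 models, of which 122 were members, 15 other olfactory receptors and 14 without a symbol, and the later build has 191 protein-coding genes and 18 pseudogenes. Of the 14 models without a symbol, 13 had a single coding exon, all on the minus strand, and 11 were of full size.

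Between ZNF202 and PANX3 there were 54 deposited models, 45 of them members, against 72 protein-coding genes and 6 pseudogenes in the later build. Between LPXN and CTNND1 there were 30 deposited models, 27 of them members, against 55 protein-coding genes and 2 pseudogenes in the later build. Between CLDND1 and GABRR3 there were 10 deposited models, 9 of them members, against 13 protein-coding genes and 2 pseudogenes. Whether these later genes are olfactory receptors is not stated by their names. Between GPR101 and RBMX, where the deposited annotation has the 4 OR8B8 models, the later build has 1 feature, a pseudogene. Between BAK1 and ZBTB9, where the deposited annotation has OR9G1 and OR9G9, each with 2 coding exons, the later build has 0 features.

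LOXL1 and TTC5, which stand beside the OR4K groups on scaffolds 16 and 6 in talOcc3, were on 1 sequence in the later build, with 74 protein-coding genes and 11 pseudogenes between them. Sequence ends were inferred in that table from falls in position.

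Genes through which these receptors signal, or that govern their choice and display, were mostly present once. From a list of 30 such genes, 28 had a model. A single model was found for 24, among them GNAL, the olfactory G protein subunit, CNGA2, a subunit of the cyclic nucleotide-gated channel, RTP1 and RTP2, which carry receptors to the cell surface, and LHX2 and EBF1, transcription factors of olfactory neurons. At least 2 models were found for 4 of the 28 (14.3%), close to the 14.6% of all symbols. These were the adenylyl cyclase ADCY3 with 3, and the channel subunit CNGB1, the phosphodiesterase PDE1C and the kinase CAMK2B with 2 each. Coding exons numbered 17 and 9 in the CNGB1 models, 18 and 1 in PDE1C, 14 and 4 in CAMK2B, and 1 to 15 in ADCY3. Whether these models are whole gene copies was not tested. The only GNB1 model had 1 coding exon. No model under its symbol was found for GNG13, a G protein gamma subunit, or OMP, the olfactory marker protein.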

How the data were processed

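The gene annotation deposited by the authors for build talOcc3 was read as given. Gene, transcript and coding exon coordinates (counted from 1) and the transcript score are as deposited, per the file's columns. No label or header defines the score. The match of 12 members was recorded in residues and of 320 in bases, so scores were compared only among the base matches of 1 symbol. The submitters' processing notes name BWA and no version of it. Of the columns, 0 hold per-sample values.

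Each gene had 1 transcript, joined by parent, scaffold and position because 70 model names stood on 2 gene records. Scaffold length was the last annotated base, and distances ran from start to start. Clusters used 500 kb and tandems 100 kb. Class I means families 51 to 56, and other class II the remaining families. Flanking genes were assigned to human chromosomes from general knowledge. Members, lists and rules were chosen with earlier results of these data known. Named were the ends and flanks of clusters of at least 10 members, the symbols with most models (ties included), runs of at least 3, extreme lengths and exon numbers, single members and pathway genes with 0 or several models. OR8B8, OR4B1, OR8U8, OR5AN1 and OR4C45 scores, smaller clusters and equal pairs were chosen after their values were seen. Python 3.11.15 with pandas 2.3.3, numpy 2.4.6 and scipy 1.17.1 was used. On simulated data of 800 models the routines recovered 100 of 100 planted clusters and 240 of 240 planted tandems. Planted distances all lay on the intended side of both limits and planted runs did not interleave, so this checks the code alone. A talOcc3 genome sequence was not used here, so no sequences are shown.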

Additional observations from a re-analysis of the deposited data

How the results depend on the processing

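For 11 results, 58 alternatives were computed, and 53 left the value within 1.5 times a count or within the spread of a measure. The number of clusters was 21 when only scaffolds of at least 1 Mb counted, against 37, because 16 clusters lie on shorter scaffolds. With the longest model of each symbol only, the median coding length was 945 bases in family 4, 954 in family 5 and 937.5 in family 8. Of the 105 models so kept, 77.14% were of full size, against 84.64% of all 332 members. By construction this choice keeps the greatest length of each symbol. The cause of these shifts was not tested. No member carried the low-confidence mark (0), and no intron was under 30 bases. The alternatives that leave out such models or merge such exons could therefore change nothing. They are counted among the 53 and say nothing of stability. Leaving out models with a target match under 60% and counting equal models once were chosen after seeing the data. No paired analysis was possible because there was 1 library of each tissue and no column of either. For the same reason no replicate could be left out, and tissue contacts were not compared. Models without a symbol were not counted as members.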
